A study of Sus scrofa with 6 samples.

Results

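The matrix metalloproteinases MMP1, MMP2, MMP3, MMP9 and MMP14 and the tissue inhibitors TIMP1, TIMP2 and TIMP3 were followed in 2 pig muscles, the longissimus dorsi (LDM) and the psoas major (PMM). LDM is a fast, glycolytic muscle of the back and PMM a more oxidative, redder muscle of the loin. The genes were chosen with earlier results of these data known, and their probes were found by annotation. A probe was taken where its name in the files equalled any of the 8 symbols. It was also taken where its description held the symbol in brackets, "matrix metalloproteinase" or "metalloproteinase inhibitor". This gave 9 of 43603 probes, among them 1 for TIMP4 and 1 with no pig gene name. The files spell MMP2 and TIMP2 with a hyphen and describe others as "metallopeptidase", so 5 more probes of MMP2, TIMP2 and TIMP3 were added by hand from the annotation text and are counted apart. They brought the number to 14.

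The samples came from female Landrace pigs of 210 days that received no experimental treatment. All pigs shared 1 diet, were fasted for a day with free water and were bled after electrical stunning, and the middle part of each muscle was frozen. Each muscle was measured on 3 one-colour Agilent arrays (Cy3), numbered as replicates 1 to 3. The labels name 3 pigs and the paper sampled both muscles of each pig, but no label ties a replicate number to an animal, so p-values measure the spread between these arrays. The labels speak of adipose tissue in the step of RNA extraction. All 12 of 12 myofibre marker genes looked for (ACTA1, CKM, DES, MB and the fast and slow myosin and troponin genes) were well above background on all 6 arrays, with list means between 8.38 and 9.54 on the log2 scale explained next. The arrays had 58.5% to 72.4% of their spots well above background, none saturated, and their number limits the precision of every value.

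Matrix metalloproteinases are secreted or membrane-bound zinc enzymes that cut collagens, gelatin, laminin and other matrix proteins, and they are made as inactive proenzymes whose propeptide has to be removed. TIMPs bind the active site of the mature enzymes and block it. In skeletal muscle these proteins are known for the turnover of the matrix around fibres and capillaries during growth, training and repair. An array reads their mRNA and not activation, secretion or inhibition. All levels below are normalized signals, log2 of the spot intensity minus log2 of the 75th percentile of its array, so that 0 is the level of that percentile. All differences are PMM minus LDM on the same log2 scale. A signal depends on the probe as well as on the mRNA, so levels of different probes were not set against each other.

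Transcripts of MMP2, MMP9, MMP14 and TIMP1 to TIMP4 were detected in both muscles, as was MMP3 on probe A_72_P256152 but not on A_72_P115421. None of these transcripts differed between LDM and PMM beyond the spread of the arrays. Of the 14 probes, 11 were well above background (the flag gIsWellAboveBG of the scanning software) on all 6 arrays, 6 of the 9 found by the rule and all 5 of the others. Over all 43603 probes this share was 54.6%, and 23.4% were above background on no array. The 11 probes entered the test. limma with Benjamini-Hochberg adjustment over the 25835 tested probes called 0 of the 11, with an adjusted p of 1.0 for each, where 0.031% of all tested probes were called (8 probes). At an unadjusted p under 0.05, 0 of the 11 passed, against 2.63% of all tested probes. In 0 of the 11 did the values of the muscles separate without overlap, against 6% of all tested probes. The differences of the 11 probes ran from -0.45 to 0.64, with a median of 0.19 (0.23 over the 6 probes found by the rule), beside a median of -0.041 over all tested probes. PMM was nominally higher for 6 of the 11, against 44.2% of all tested probes. Without LDM replicate 1 the median of the 11 was -0.072 and PMM was nominally higher for 4. For all 11 probes the range of the 3 LDM arrays exceeded the difference between the muscles.

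**Figure D1:**
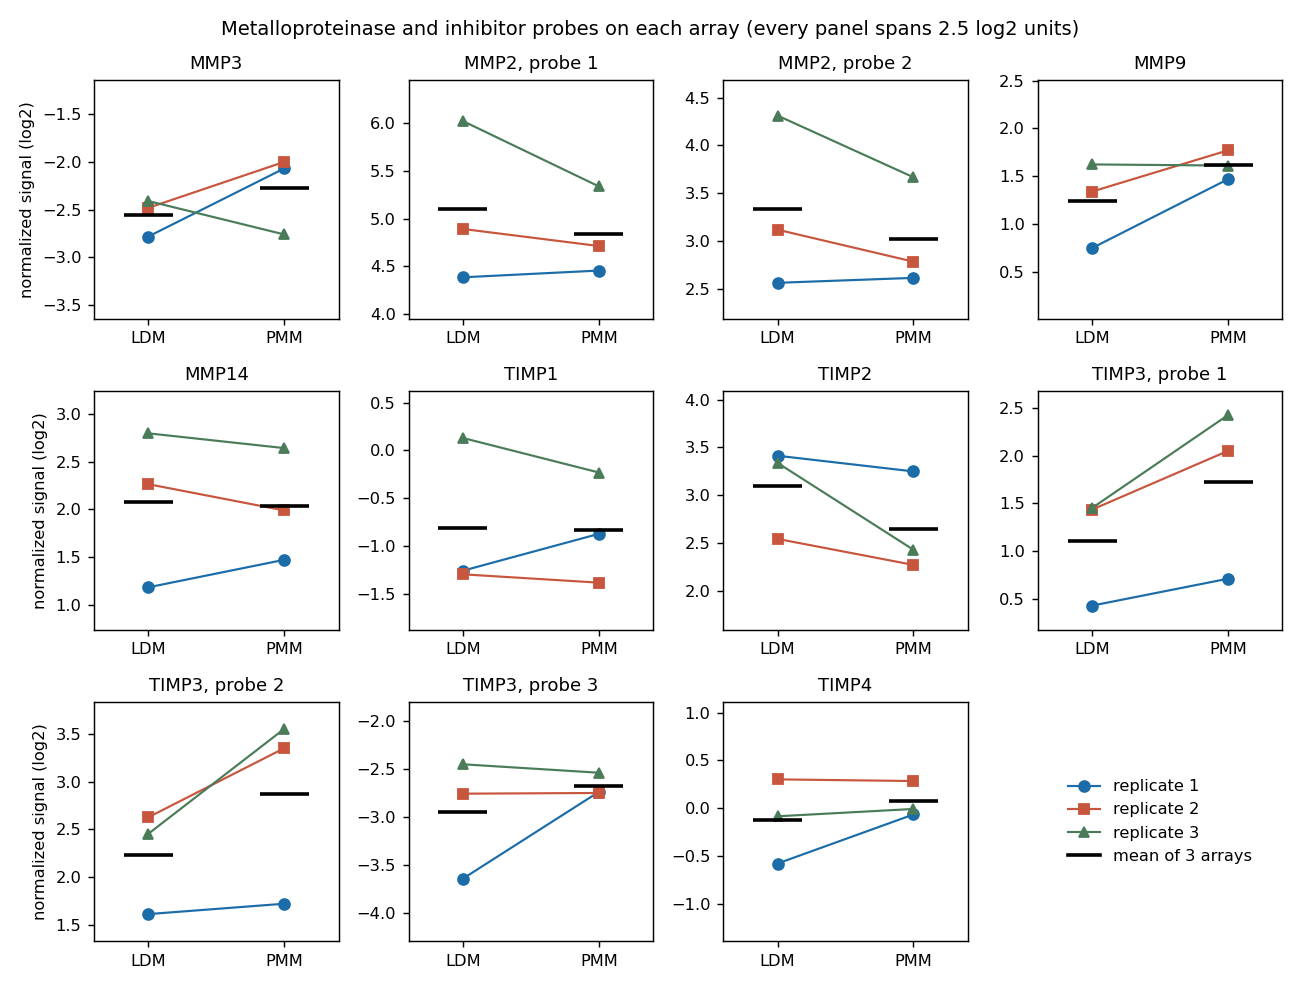
Normalized signal (log2, y axis) of the 11 probes well above background on all arrays in LDM and PMM, 1 point per array, with lines joining arrays of the same replicate number and black bars for the mean of 3 arrays. Each panel spans the same number of log2 units around its own centre, and in all 11 panels the values of the 2 muscles overlap.

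Among the collagenases and stromelysins, the MMP1 probe (interstitial collagenase, which opens fibrillar collagen) was above background on none of the 6 arrays. Its intensity lay between 2.25 and 6.03 units, where the dimmest probe that passed the flag read 9.21 to 28.2 units, depending on the array. A difference between the muscles was therefore not measurable for MMP1. MMP3 (stromelysin 1, which cuts proteoglycans, laminin and fibronectin and activates other proenzymes) had a pair of probes designed on the same cDNA clone, and they disagreed. Probe A_72_P115421 was above background on 0 of 6 arrays, at 1.94 to 5.71 units, whereas probe A_72_P256152 was above it on all 6. The detected probe reaches into the catalytic site, where 3 histidines hold the zinc ion, and ends before the last of them. It is shown because it lies in the coding part, with the letters as given in the array files. The 15 bases that code for the start of the zinc-binding motif (bases 45 to 59, the third forward reading frame) are in capitals.
MMP3, probe A_72_P256152: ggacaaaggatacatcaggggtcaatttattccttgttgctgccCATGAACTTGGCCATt

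The start of the zinc-binding motif (HExxH, with x for any residue) was present in a forward frame in 0.151% of all probes (66 of 43603). Of the 14 described here, 1 held it. The undetected MMP3 probe held AATAAA, the polyadenylation signal, 3 bases before its end. These 6 letters occurred in 12.1% of all probes and in 3 of the 14, the others being those of MMP9 and of MMP2 (A_72_P177771), both of which were detected on every array. MMP3 (A_72_P256152) read -2.78, -2.48 and -2.41 in LDM and -2.07, -2.0 and -2.76 in PMM for replicates 1, 2 and 3. Replicates 1 and 2 were higher in PMM and replicate 3 was lower. The means were -2.56 ± 0.20 and -2.28 ± 0.42 (SD, n = 3), and the difference was 0.28 with a 95% confidence interval of -0.47 to 1.03. In the RefSeq annotation of Sscrofa11.1, MMP1 and MMP3 lie side by side, with MMP8 before and MMP12 after them.

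The gelatinases MMP2 and MMP9 digest denatured collagen and basement membrane collagen. MMP9 (A_72_P303264) read 0.75, 1.34 and 1.62 in LDM and 1.47, 1.77 and 1.61 in PMM. LDM replicate 1 was the low value, and the PMM values were closer to each other (SD 0.15, n = 3) than the LDM values (SD 0.45, n = 3). The difference was 0.38 (SE 0.33, 95% confidence interval -0.37 to 1.13), a 1.30-fold higher mean in PMM that did not pass the test. MMP2 had a probe named after gelatinase A (A_72_P177771) and one described by similarity to bovine MMP2 (A_72_P240122). The first read 4.39, 4.89 and 6.02 in LDM and 4.46, 4.71 and 5.34 in PMM. The second read 2.56, 3.12 and 4.31 in LDM and 2.61, 2.78 and 3.67 in PMM. On both, replicate 3 was the highest in each muscle and the muscles overlapped. Over the 6 arrays the probes gave a Pearson's r of 0.995 with each other, as a description, since they shared arrays and normalization. The differences were -0.26 (95% confidence interval -1.33 to 0.80) and -0.31 (-1.45 to 0.83). Without LDM replicate 3 both turned positive, at 0.20 and 0.18.

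MMP14 is the membrane-type enzyme that, together with TIMP2, activates pro-MMP2 at the cell surface. Its probe (A_72_P232857) read 1.18, 2.26 and 2.80 in LDM and 1.47, 1.99 and 2.64 in PMM. The replicates kept the same order in both muscles, replicate 1 lowest and replicate 3 highest. The difference was -0.047 (SE 0.48, 95% confidence interval -1.15 to 1.06), whose sign turned when LDM replicate 2 (0.044), LDM replicate 3 (0.31) or PMM replicate 1 (0.23) was left out. The remaining probe found by the rule, A_72_P027826, carries a contig name and a partial similarity to a metalloproteinase of a green alga, and no pig gene was matched to it. It was above background on 2 LDM arrays and 1 PMM array and was not tested.

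Of the inhibitors, TIMP1 and TIMP2 are soluble proteins, TIMP3 is bound to the matrix and TIMP4 is known from heart and skeletal muscle. The probes of TIMP1 and TIMP2 were the pair with the longest run of identical bases among the tested probes. They are shown to let the probes of the 2 genes be told apart, with the 11 shared bases in capitals and the letters as given in the array files.
TIMP1, probe A_72_P223927: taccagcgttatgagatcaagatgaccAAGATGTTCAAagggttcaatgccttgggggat
TIMP2, probe A_72_P321983: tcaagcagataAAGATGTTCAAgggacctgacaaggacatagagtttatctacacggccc

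TIMP1 read -1.26, -1.30 and 0.13 in LDM and -0.87, -1.38 and -0.23 in PMM. Replicate 3 was the highest in each muscle, and the means of -0.81 ± 0.81 and -0.83 ± 0.58 (SD, n = 3) nearly coincided. The difference was -0.021 (SE 0.48, 95% confidence interval -1.12 to 1.07), and it was positive without LDM replicate 3 (0.45), PMM replicate 1 (0.00083) or PMM replicate 2 (0.26). TIMP2 read 3.41, 2.54 and 3.34 in LDM and 3.25, 2.27 and 2.43 in PMM. PMM was lower in each of the 3 same-numbered pairs, by 0.16, 0.27 and 0.91. The difference of -0.45 (SE 0.39, 95% confidence interval -1.34 to 0.45) did not pass the test. TIMP4 (A_72_P020541) read -0.58, 0.30 and -0.085 in LDM and -0.066, 0.28 and -0.0081 in PMM, with only LDM replicate 1 clearly apart from the others. Its difference was 0.19 with an interval of -0.57 to 0.95, the only 1 of the 11 intervals that lay wholly within a 2-fold change in either direction. It read -0.038 without LDM replicate 1. In RefSeq, TIMP1, TIMP3 and TIMP4 lie inside the synapsin genes SYN1, SYN3 and SYN2, in this order.

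TIMP3 had the widest differences among these genes. Probe 1 (A_72_P101346) read 0.43, 1.43 and 1.45 in LDM and 0.71, 2.05 and 2.42 in PMM. Probe 2 (A_72_P428284), on the same contig, read 1.61, 2.63 and 2.45 in LDM and 1.72, 3.35 and 3.55 in PMM. On both, PMM was higher in each pair, by 0.28, 0.61 and 0.97 for probe 1 and by 0.11, 0.72 and 1.1 for probe 2, while replicate 1 was low in both muscles and made the muscles overlap. The differences were 0.62 (SE 0.51, 95% confidence interval -0.53 to 1.78) and 0.64 (SE 0.53, -0.56 to 1.85), or 1.54-fold and 1.56-fold. Without LDM replicate 1 they were 0.28 and 0.30, and without PMM replicate 1 they were 1.13 and 1.22. Probe 3 (A_72_P319118), described by similarity to human TIMP3, read -3.65, -2.76 and -2.45 in LDM and -2.74, -2.75 and -2.54 in PMM. Here only replicate 1 was clearly higher in PMM, by 0.91, and the difference was 0.28 (SE 0.37), or -0.072 without LDM replicate 1. Over the 6 arrays probes 1 and 2 gave a Pearson's r of 0.991, and probe 3 gave 0.677 and 0.591 with them, so the probes of TIMP3 disagreed on how the arrays differ.

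Arrays that share a replicate number also share a scan day, and they deviated together from the mean of their muscle, so a fit with the replicate number as a block was made as well. The block leaves each difference as it is and changes its error. The standard errors of the 11 probes lay between 0.33 and 0.53 without the block and between 0.19 and 0.25 with it. It called 0 of the 11 (0.0658% of all tested probes), with adjusted p-values from 0.367 to 0.978. At an unadjusted p under 0.05, 2 of the 11 passed, TIMP3 probes 1 and 2, where 11.1% of all tested probes did. Their adjusted p-values were 0.367 and 0.417. Over all tested probes, 35.7% had their 3 pairs in one direction. Of the 11 probes 3 did, TIMP2 and TIMP3 probes 1 and 2. Replicates 2 and 3 also shared a slide between the muscles, and replicate 1 did not. With the slide as a block the differences rest on replicates 2 and 3 alone, and 0 of the 11 were called, where 2.05% of all tested probes were. This fit gave every probe the same error (SE 0.313), so its p-values do not use a probe's own spread. TIMP3 probe 2 then had the lowest adjusted p of the 11, at 0.131.

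**Figure D2:**
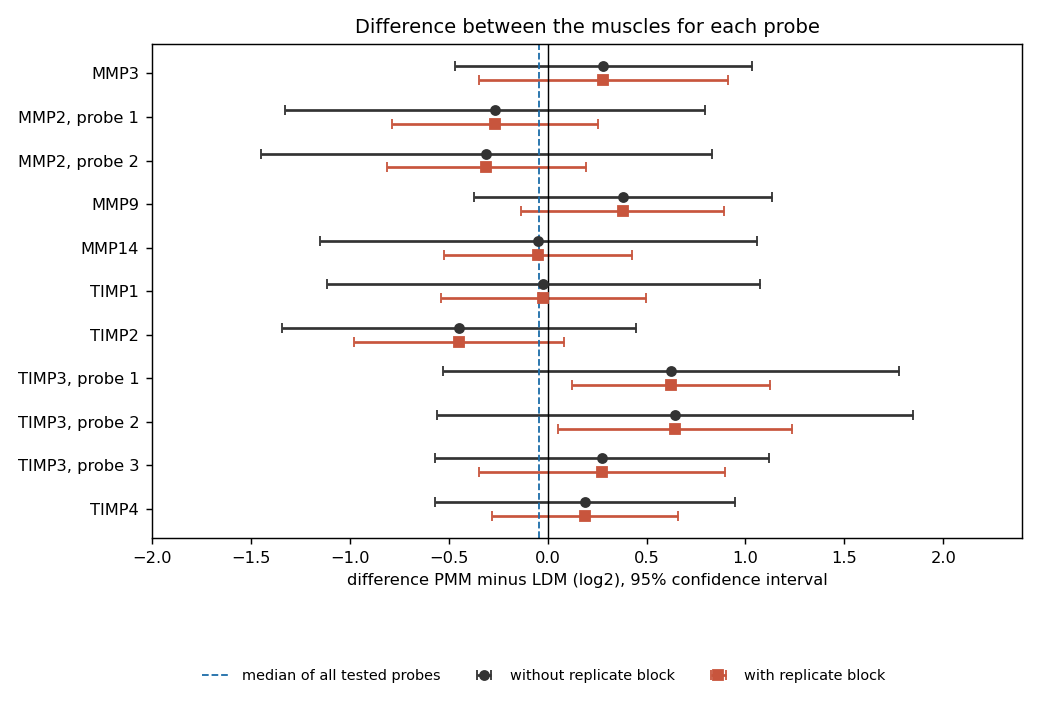
Difference between the muscles (PMM minus LDM, log2, x axis) for each of the 11 probes with its 95% confidence interval, without (black) and with (red) the replicate number as a block, beside the median of all tested probes (dashed, -0.041). Without the block all 11 intervals include 0, and with it those of TIMP3 probes 1 and 2 do not, before adjustment for the number of tests.

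The other metzincins listed beside these genes (further MMPs, ADAM and ADAMTS proteases) had 14 probes of 10 genes, and 12 probes of 9 genes were tested. limma called 0 of the 12 (0.031% of all tested probes), and at an unadjusted p under 0.05 it was 1 of the 12 without a block (2.63% of all) and 2 with the replicate block (11.1% of all). PMM was nominally higher for 10 of them, against 44.2% of all tested probes, with a median difference of 0.15. Without LDM replicate 2 it was higher for 7 of the 12, with a median of 0.11. The smallest p belonged to MMP12, the elastase of macrophages, which was singled out after its values were seen. Its probe read -5.56, -5.31 and -5.47 in LDM and -3.52, -3.81 and -4.24 in PMM. It was above background on all 3 PMM arrays but only 1 LDM array, so it entered the test through PMM and its LDM level was mostly not measured. The nominal difference was 1.59 and shrank to 0.66 under normexp background correction, and it was not called without a block (adjusted p = 0.835) or with the replicate block (0.150). Of the 11 other tested probes of this list, which were above background on all 6 arrays, 0 had an unadjusted p under 0.05 without a block. MMP7, or matrilysin, read -2.87, -1.82 and -2.77 in LDM and -1.69, -1.19 and -2.56 in PMM, a difference of 0.67 (SE 0.45). PMM was higher in each of its pairs. MMP7 and MMP12 were the 2 that passed with the replicate block, where MMP7 had an unadjusted p of 0.031 in limma (adjusted p = 0.390). ADAMTS1, a protease of aggrecan and versican, differed by 0.46 (SE 0.41) and ADAMTS20 by 0.18 (SE 0.35), neither beyond the spread of the arrays.

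Of the genes listed as activators, other inhibitors, surface partners and inducers of these enzymes, 23 of 28 probes were tested and 0 were called (0.031% of all tested probes). At an unadjusted p under 0.05, 1 of the 23 passed without a block (CTGF, against 2.63% of all) and 3 with the replicate block (against 11.1%). PMM was nominally higher for 10 of the 23 probes (17 genes), against 44.2% of all tested probes, with a median of -0.035. Without LDM replicate 3 it was higher for 20 of 25, with a median of 0.16. CTGF, a matricellular protein downstream of TGF-beta, read -0.052, 0.17 and 1.1 in LDM and 1.24, 1.69 and 1.85 in PMM. Its muscles did not overlap, and the difference was 1.18 (SE 0.39, adjusted p = 1.0, or 0.196 with the replicate block and 0.0194 with the slide block). The last of these rests on the error that the slide block shares over all probes. TGFB2, a growth factor that induces matrix genes, ran the other way, at 1.37, 1.29 and 1.4 in LDM and 0.91, 0.69 and 0.59 in PMM, a difference of -0.63 (SE 0.28) without overlap. Neither passed the test without a block. They were the 2 of the 23 probes whose muscles did not overlap, where 6% of all tested probes did not.

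Of the matrix proteins that these enzymes cut or sit beside, 25 of 27 probes were tested and 0 were called, with or without the replicate block (0.0658% and 0.031% of all tested probes). At an unadjusted p under 0.05, 0 of the 25 passed without the block and 8 with it, where 11.1% of all tested probes did. The 8 were probes of COL1A1, COL1A2, LAMB1, FN1, DCN and SPP1, all nominally lower in PMM. The LAMB1 probe and 1 VTN probe were above background on 3 LDM but only 2 PMM arrays. They entered the test through LDM, and their PMM level was partly not measured. PMM was nominally lower for 20 of the 25, with a median of -0.42, where 55.8% of all tested probes were lower in PMM. The 25 probes are of 16 genes, and probes of the same gene are not separate observations. Among the 23 probes above background on all 6 arrays, PMM was lower for 19. Without LDM replicate 3 it was lower for 15 of the 25, with a median of -0.16. COL1A1 and COL1A2, the chains of type I collagen, differed by -0.83 (SE 0.52) and -0.84 (SE 0.53), with PMM lower in all 3 pairs and overlapping muscles. Under normexp they were -0.067 and -0.38, and without LDM replicate 3 they were -0.33 and -0.35. SPP1, or osteopontin, a substrate of MMP3 and MMP7, was the most variable of the list. Its brighter probe read 3.14, -1.54 and 3.58 in LDM and -1.51, -1.87 and 0.75 in PMM. LDM replicate 2 lay with the PMM arrays, and the difference of -2.60 (SE 1.29, adjusted p = 1.0) was -4.24 without that array (adjusted p = 0.611), -1.90 without LDM replicate 1 and -1.68 without LDM replicate 3. With the slide block it was -1.58 (adjusted p = 7.27e-05), and the dimmer SPP1 probe was called there too (-1.27, adjusted p = 0.0043). That fit rests on replicates 2 and 3, whose pairs differed by -0.33 and -2.83 on the brighter probe. Its error (SE 0.313) is shared by every probe, so these p-values do not use the spread of SPP1.

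**Figure D3:**
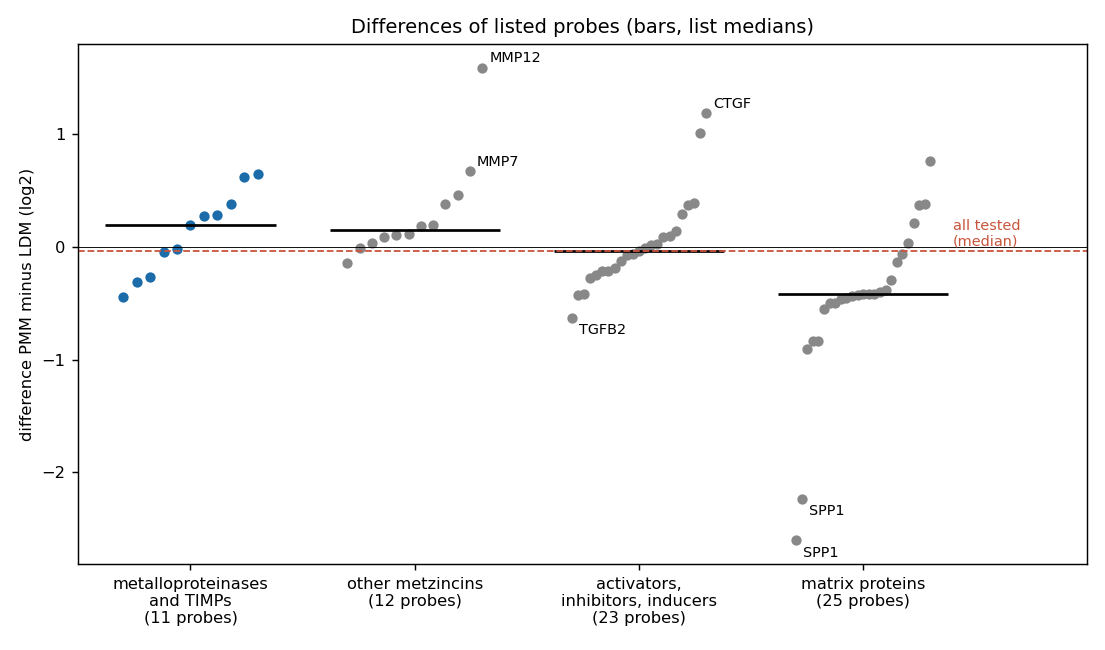
Difference between the muscles (PMM minus LDM, log2, y axis) for each tested probe of the metalloproteinases and TIMPs and of the 3 lists beside them, sorted within each list, with black bars for list medians and a dashed line for the median of all tested probes. The medians are 0.19, 0.15, -0.035 and -0.42 from left to right, and the named points include MMP12 at 1.59 (above background on 1 LDM array), CTGF at 1.18 and the brighter SPP1 probe at -2.60.

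MMPs and TIMPs are made by fibroblasts, endothelial cells, macrophages and other cells, and in whole muscle fewer cells of a type and less RNA per cell cannot be told apart. All 6 probes of the fibroblast markers were nominally lower in PMM, against 55.8% of all tested probes. List means take only the brightest probe of each gene above background on all 6 arrays. For the 4 fibroblast genes they were 1.02 to 2.03 in LDM and 0.44 to 1.18 in PMM. All 6 fibroblast probes are of COL1A1, COL1A2, COL3A1 and DCN and are among the 25 matrix probes above, so they are no separate observation. Endothelial markers were nominally higher in PMM for 12 of 13 probes (7 genes), against 44.2% of all tested probes. The list means, over 6 of these genes, were 1.70 to 3.28 in LDM and 2.63 to 3.35 in PMM. Of the 13 probes, 2 were above background on all arrays of only 1 muscle and entered the test through it. The 10 probes of macrophage markers (4 genes) had a median difference of 0.023. The list means of the 4 genes were 0.98 to 3.03 in LDM and 1.35 to 2.73 in PMM. The 10 probes of adipocyte markers (6 genes) had 8 lower in PMM, against 55.8% of all tested probes. The list means, over 5 of these genes, were 2.48 to 3.52 in LDM and 2.31 to 3.48 in PMM. Of the 10 probes, 1 entered the test through only 1 muscle. Of the neutrophil markers only LTF, or lactoferrin, had a probe, at -2.93 to -2.18 in LDM and -2.17 to -1.33 in PMM. Of the mast cell markers only KIT had probes, the brighter of which read 1.87 to 3.22 in LDM and 2.42 to 3.45 in PMM. No probe was matched for erythrocytes. LPL, lipoprotein lipase, of the adipocyte list ran against most of it, at 2.34, 2.95 and 3.08 in LDM and 4.36, 3.64 and 3.71 in PMM. It was the only 1 of these marker probes with an unadjusted p under 0.05 without a block (difference 1.12, adjusted p = 1.0). With the replicate block 8 of 10 adipocyte, 4 of 6 fibroblast and 1 of 13 endothelial probes passed that limit, as did the LTF probe. No macrophage or mast cell probe did, where 11.1% of all tested probes passed. None of these marker probes was called without a block or with the replicate block. Their part in the differences described here was not tested.

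Patterns over the 6 arrays were compared with those of up to 2755 other named genes. The nearest 2 genes were OLFML2B and ACSL5 for MMP14 (Pearson's r = 0.996 and 0.994), SFXN3 and C2 for MMP2 (0.997 and 0.996), and UBE2W and F10 for MMP3 (0.963 and 0.957). They were HOPX and SLC22A6 for MMP9 (0.992 and 0.988), CDC20 and RHOG for TIMP1 (0.999 and 0.997), and UBE2Q1 and PPOX for TIMP2 (0.992 and 0.989). For TIMP3 (probe 2) they were CDKL1 and NPG4 (0.970 and 0.961), and for TIMP4 CNTRL and GOLGA7 (0.971 and 0.969). With 6 arrays such values are common. The number of genes past 0.9 ran from 10 for MMP3 to 325 for MMP14.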

How the data were processed

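Total RNA of LDM and PMM was hybridized to 6 one-colour Agilent arrays. The authors deposited spot intensities from Agilent Feature Extraction 10.5.1.1, with local background subtracted and spatial trends corrected and with no normalization between arrays. The intensities in the deposited table of all arrays differed from these by at most 0.005 units. The test behind the study's array comparison is not given in the sources used here. Control spots were left out, as were spots marked as outliers (6 to 161 an array). Repeated spots gave 1 mean intensity, and log2 of the array's 75th percentile was subtracted from its log2. Probes well above background on all 3 arrays of either muscle, with at least 2 values per muscle, were tested two-sided with lmFit and eBayes of limma 3.58.1 (R 4.3.3), with Benjamini-Hochberg adjustment, a threshold of 0.05 and no block. The test was first run on simulated data, as a check of the code only. The simulated arrays were independent and the changes larger than those of the metalloproteinase and TIMP probes. Normexp used an offset of 50.

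Names of other genes, for 5152 probes, came from a RefSeq table (Sscrofa11.1, used for names and neighbours only) matched by accession or gene number, or from the files. The array files name no genome build, so no positions are given. The members, the lists and the markers were chosen with earlier results of these data known. Besides the members, the text names from each list called genes and up to 3 genes with the largest change among probes above background on all arrays, taking the brightest probe of a gene, and the 2 genes nearest in pattern to each member. Not every marker so named is given its values. MMP12 was named outside that rule, and 1 gene of the lists is not reported here.

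As a check on pairing, the deviations of same-numbered arrays from the mean of their muscle correlated at 0.62, 0.70 and 0.56 for replicates 1, 2 and 3. All exceed 0.1, so the numbers were used as pairs in the fit with the replicate block and in the counts of pairs. The main test had no block. Same-numbered arrays also share a scan day, so these correlations do not show that they came from 1 pig.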

Additional observations from a re-analysis of the deposited data

How the results depend on the processing

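Of the 176 values of the 11 metalloproteinase and TIMP probes under 16 alternatives, 163 kept their sign and 13 turned, and 0 passed the threshold under any alternative (lowest adjusted p 0.131). Many of the kept signs could not have turned. For these probes the changed or dropped detection filter, the outlier spots, the series' value table and the replicate block left each difference practically unchanged. TIMP1 read 0.011 with the 75th percentile taken over probes detected on all arrays and 0.028 under normexp, and TIMP3 probe 3 read -0.040 with the slide block. Leaving out 1 array at a time gave -0.50 to 0.31 for MMP14, -0.62 to 0.20 and -0.69 to 0.18 for the MMP2 probes, -0.32 to 0.45 for TIMP1, -0.072 to 0.53 for TIMP3 probe 3, -0.038 to 0.40 for TIMP4 and, among the listed genes, -0.13 to 0.37 for ADAMTS20. It also gave 0 to 3 probes without overlap, both among those found by the rule and with the other spellings. The 3 by the rule (MMP9, TIMP3 probe 3 and A_72_P027826) are of 7 tested without LDM replicate 3, since A_72_P027826 then enters the test. The 3 without PMM replicate 1 are TIMP2 and TIMP3 probes 1 and 2.

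The number of probes called among all tested was 8. It was 0 with the 75th percentile over detected probes, without a detection filter, with probes detected on all 6 arrays, with outlier spots kept and with the series' value table, 1 under normexp, and 0 to 1 when 1 array was left out. It was 17 with the replicate block and 529 with the slide block, which leaves 1 residual degree of freedom. There limma gave every probe the same error (SE 0.313), so these calls do not use a probe's own spread. The slide block called 1 probe of the other metzincins, 1 of the regulators and 2 of the matrix proteins, MMP12 (1.36, on an LDM level above background on 1 of 3 arrays), CTGF (1.13) and SPP1 (-1.58 and -1.27). The replicate block changed no other call given here. Normexp moved the median of all tested probes from -0.041 to 0.10. The alternatives for listed genes were chosen after seeing the data. With 3 arrays per muscle, differences within the intervals given are not excluded.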
